A study of Homo sapiens with 8 samples.

Results

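The genes described here encode the ligands, receptors, SMAD proteins, inhibitors and ID target genes of bone morphogenetic protein (BMP) and transforming growth factor beta (TGF-beta) signalling. They are a named list of 45 genes. A gene was taken where a probe set, the group of probes that reads out a gene on the array, had that gene as its single annotated symbol, and the probe set with the highest mean was kept. This held for 44 of the 45, of 18417 genes tested in all. BMPR1A was not analysed here.

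Expression was measured on 8 Affymetrix human gene arrays in U2OS, a human osteosarcoma cell line grown in DMEM with 7.5% serum. One group of 4 cultures received siRNA against CDK9, the kinase of P-TEFb that releases paused RNA polymerase II, and the other group of 4 received a non-targeting siRNA. Both siRNAs were used at 10 nM with the same transfection reagent, and all cells were harvested 72 h later. The series' design text calls the cultures biological replicates, all from 1 tumour cell line. With bulk RNA, fewer cells with a transcript and less of it per cell cannot be told apart.

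BMPs, activins and TGF-betas are secreted dimers that bring type I and type II receptor kinases together at the cell surface. The type I receptors of the BMP branch phosphorylate SMAD1, SMAD5 and SMAD9, and those of the TGF-beta and activin branch phosphorylate SMAD2 and SMAD3. Both kinds of SMAD enter the nucleus with SMAD4. BMPs drive osteoblast differentiation, and TGF-beta induces matrix genes in bone-forming and other mesenchymal cells.

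Values are log2 expression, on which a difference of 1 is a doubling of signal, and levels of different genes are not compared because each probe set has its own response. The deposited columns are not on 1 scale. The 2 arrays of replicate 1, called set 1, have medians of 5.80 and 5.85, and the other 6 arrays, called set 2, have medians of 6.99 to 7.04. The fit therefore has a block for the set. A gene is said to have risen or fallen where limma's p, adjusted by Benjamini-Hochberg for every gene tested, was under 0.05. CDK9 itself read 8.0, 9.03, 9.09 and 9.04 in replicates 1 to 4 given its siRNA and 9.81, 10.86, 10.89 and 10.86 in the controls, a difference of -1.82 ± 0.05 (SE, n = 4 per group). Of 8 osteoblast lineage and mesenchymal markers, RUNX2, COL1A1, CDH11 and VIM fell (for VIM adjusted p = 0.0808 when blocked by replicate number and 0.0744 after median centring) and 4 were not called, and control means in set 2 ranged from 6.26 to 12.53. The 3 leukocyte and 4 endothelial markers measured were all among the dim genes, those in the lowest 30% of mean level, with control means of 3.91 to 5.85 and 5.45 to 5.94. So were 3 of 4 epithelial markers and, of the 8 osteoblast lineage and mesenchymal markers, ALPL. TEK and EPCAM, both dim, rose by 0.30 and 0.32 (adjusted p = 0.0841 for EPCAM when blocked by replicate number). The part of these shifts in the results below was not tested.

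Of the 44 members, 10 fell and 4 rose after CDK9 silencing. Over all genes tested, 7.47% fell and 6.73% rose, 14.2% in all. Only 3 of the 44 members were dim. With dim genes left out, 1653 of 12892 genes fell and 1417 rose, a larger share, and the same 14 members were called. The falls were those of the ligands BMP4, TGFB1 and BMP7, of SMAD1, LTBP1 and BAMBI, and of ID1, ID2, ID3 and ID4. The rises were those of FST, BMP6, TGFBR1 and SMAD4. The median difference of the members was -0.06, beside -0.002 over all genes tested. All 14 had the same direction in both sets, and in set 2 the arrays of the groups did not overlap for any of them. The calls came from these same arrays, so this is not separate evidence. Over all 44 members, 12 were lower and 6 higher in this sense, with set 2 arrays that did not overlap and a set 1 pair that went the same way, where 13.8% and 11.5% of all genes tested were (25.3% in all). When blocked by replicate number, 8 members fell and 3 rose, against 4.75% and 4.41% of all genes tested (9.17% in all). All 11 were among the 14, and the 3 that lost their call were BMP4, BMP7 and SMAD4.

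**Figure D1:**
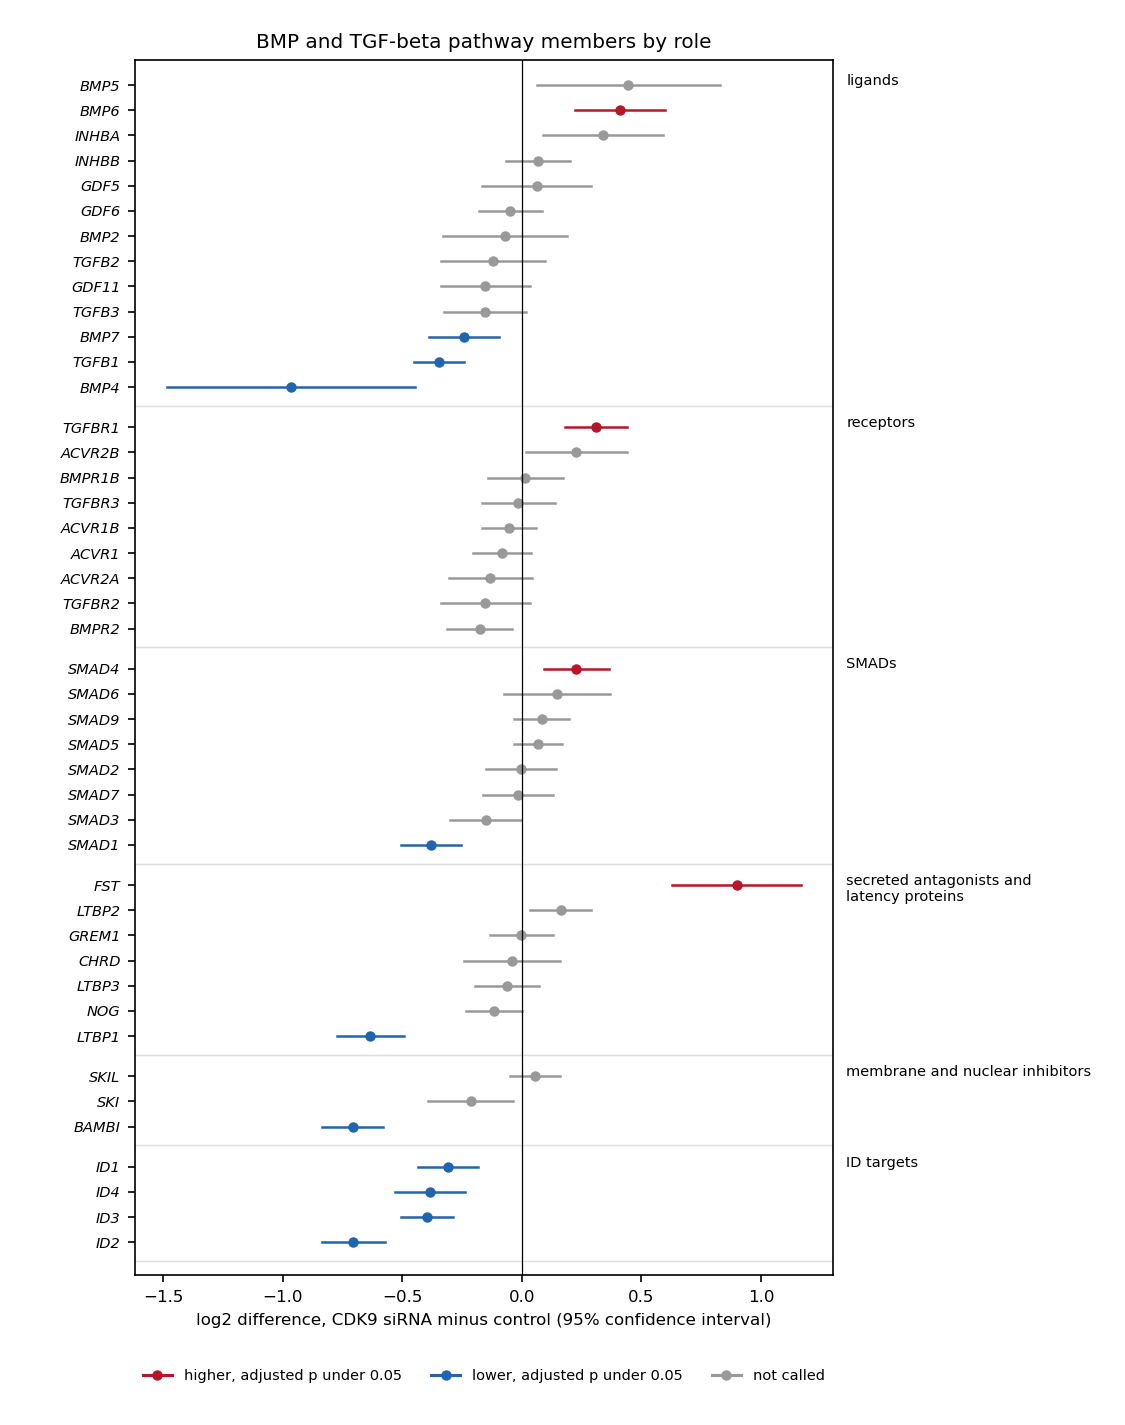
Log2 difference between CDK9 siRNA and control siRNA (x axis) for the 44 measured members, grouped by role, with 95% confidence intervals from limma, blocked by set (n = 4 arrays per group). The 4 ID genes all lie below 0, while 8 of 9 receptors and 6 of 8 SMAD genes were not called.

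Of 13 ligands, BMP4, TGFB1 and BMP7 fell and BMP6 rose. BMP4, a morphogen that induces bone and patterns the early embryo, read 6.74, 10.48, 10.59 and 10.57 in CDK9 siRNA replicates 1 to 4 and 8.89, 11.12, 11.16 and 11.09 in the controls. Every CDK9 siRNA array lay below the controls of its set, and replicate 1 was lower still. The difference was -0.97 ± 0.23 (SE, n = 4 per group, adjusted p = 0.0233), which leaves 51.2% of the control signal. It was -2.15 in set 1 and -0.57 in set 2 alone (adjusted p = 0.000806), and when blocked by replicate number BMP4 did not pass (adjusted p = 0.0615). The size of the fall therefore rests on the single pair of set 1, while its direction does not.

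TGFB1 encodes the prototype TGF-beta ligand, which is secreted in a latent form. It read 8.44, 9.79, 9.85 and 9.85 after CDK9 silencing and 8.81, 10.19, 10.18 and 10.15 in the controls. Its fall, -0.35 ± 0.05 (SE, n = 4 per group, adjusted p = 0.0016), was nearly the same size in sets 1 and 2, at -0.37 and -0.34. TGFB2 and TGFB3, the other TGF-beta isoforms, were not called, with differences of -0.12 (95% confidence interval -0.34 to 0.10, adjusted p = 0.476) and -0.15 (-0.32 to 0.02, adjusted p = 0.223). The TGFB2 difference was -0.56 in set 1 and 0.03 in set 2.

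BMP6 and BMP7 encode closely related osteogenic ligands, and they moved in opposite directions. BMP6 read 6.61, 8.0, 8.04 and 8.36 with CDK9 siRNA against 6.06, 7.80, 7.78 and 7.72 with control siRNA, a rise of 0.41 ± 0.08 (SE, n = 4 per group, adjusted p = 0.012). Replicate 4 was the highest CDK9 siRNA array and the groups of each set stayed apart. For BMP7 the values were 6.06, 7.58, 7.63 and 7.41 against 6.17, 7.86, 7.78 and 7.84. That is a fall of 0.24 on the log2 scale (SE 0.06, n = 4 per group, adjusted p = 0.0365). The BMP7 call was lost when blocked by replicate number (adjusted p = 0.0773) and without any 1 of the 6 arrays of set 2 (adjusted p of up to 0.104).

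The remaining 9 ligands were not called, with differences from -0.15 to 0.45. The largest was BMP5, another osteogenic BMP, at 0.45 ± 0.17 (SE, adjusted p = 0.121). It read 7.83 against 8.23 in set 1, a difference of -0.39, but 10.28, 10.32 and 10.21 against 9.48, 9.49 and 9.66 in set 2, a difference of 0.73 (adjusted p = 0.000806 in that set alone). INHBA, the subunit that forms activin A, behaved alike in sign: the overall difference was 0.34 (adjusted p = 0.0761), with -0.15 in set 1 and 0.50 in set 2 (adjusted p = 0.00352 there). GDF11, a ligand of the activin branch, differed by 0.21 and -0.27 in sets 1 and 2. BMP2, GDF5, GDF6 and INHBB lay between -0.07 and 0.07, and GDF5 and GDF6 were dim.

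**Figure D2:**
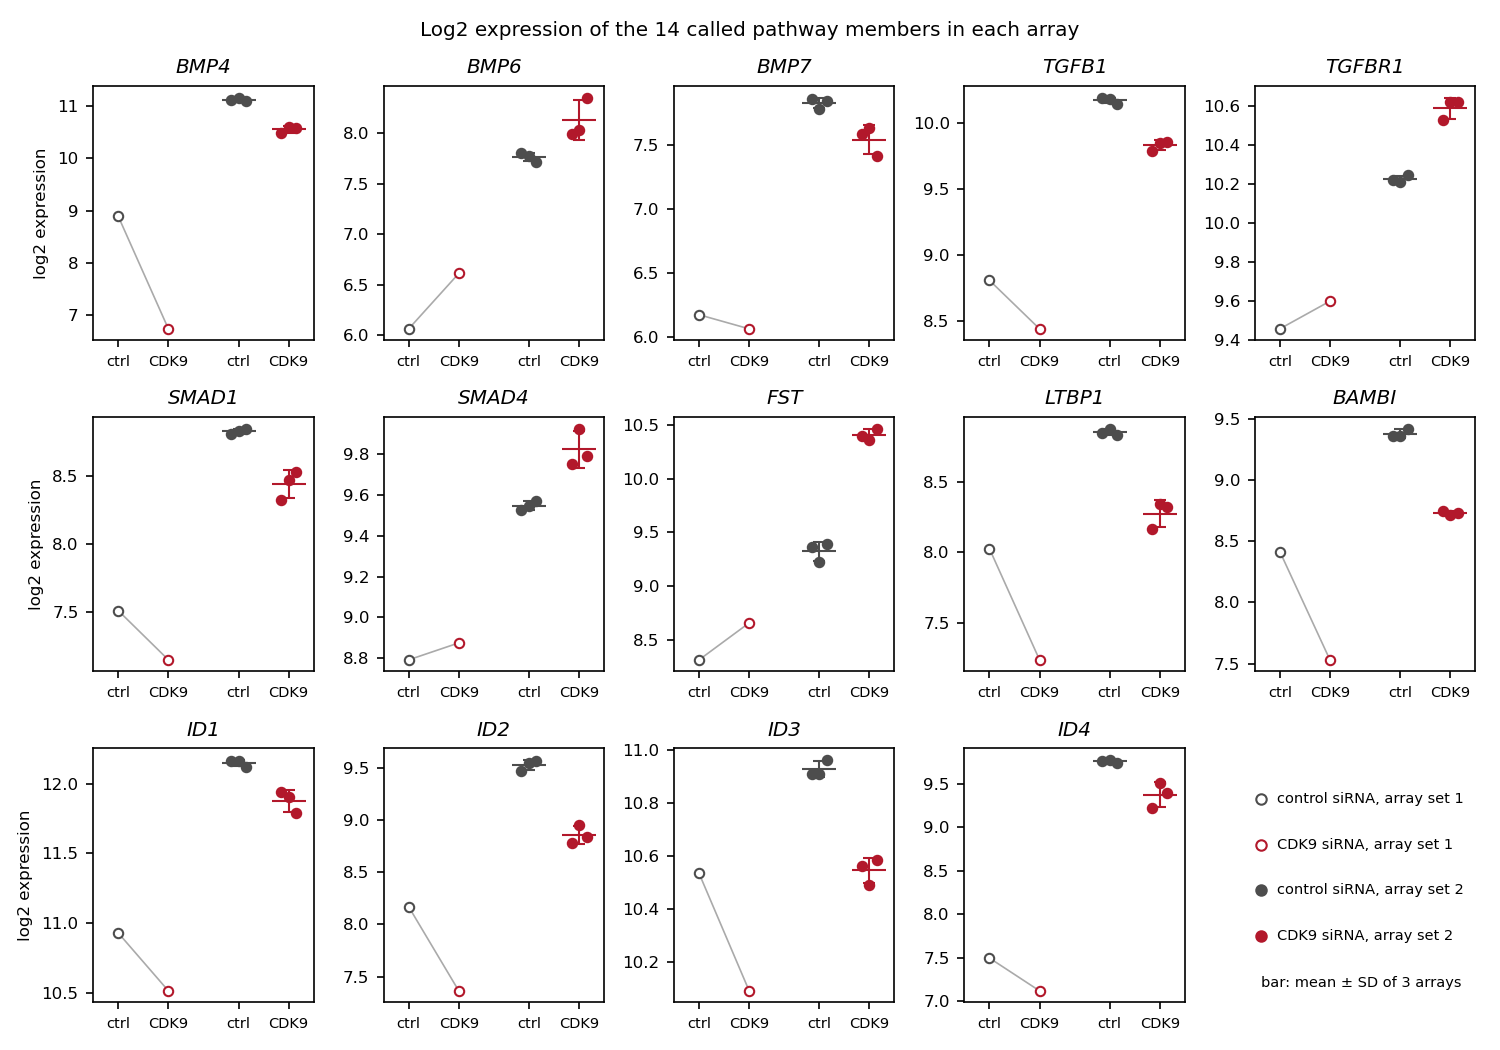
Log2 expression (y axis, a separate scale in each panel) in every array for the 14 called members. Open points are the replicate 1 pair, joined by a line, and filled points are replicates 2 to 4 with their mean and SD; in every panel the filled points of the groups do not overlap and the open pair goes the same way.

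Of 9 measured receptors, TGFBR1 rose and the other 8 were not called, with differences of -0.18 to 0.23. TGFBR1 is the type I receptor kinase of TGF-beta. Its values were 9.60, 10.53, 10.62 and 10.62 with CDK9 siRNA and 9.46, 10.22, 10.21 and 10.24 in the controls, a difference of 0.31 ± 0.06 (SE, n = 4 per group, adjusted p = 0.00774). In set 2 all 3 silenced arrays were above all 3 controls.

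TGFBR2, the type II receptor that binds TGF-beta and activates TGFBR1, was not called over all arrays (-0.15, 95% confidence interval -0.34 to 0.04, adjusted p = 0.277). In set 2 it read 9.37, 9.39 and 9.40 against 9.67, 9.67 and 9.64, a difference of -0.28 (adjusted p = 0.00584 in that set alone). The pair of set 1 went the other way, 8.97 against 8.75. Among the BMP and activin receptors, BMPR2 (-0.18, adjusted p = 0.0897) and ACVR2B (0.23, adjusted p = 0.146) differed most. ACVR2A differed by -0.13 (95% confidence interval -0.31 to 0.04, adjusted p = 0.305). The intervals of ACVR1, ACVR1B, BMPR1B and TGFBR3 all included 0 and reached no further than -0.20 and 0.17.

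Of 8 SMAD genes, SMAD1 fell and SMAD4 rose. SMAD1, a receptor-activated SMAD of the BMP branch, read 7.15, 8.32, 8.47 and 8.53 after silencing and 7.51, 8.80, 8.83 and 8.84 in the controls. The difference was -0.38 ± 0.06 (SE, n = 4 per group, adjusted p = 0.00274), with -0.36 and -0.39 in sets 1 and 2. Its paralogues of the same branch were not called: SMAD5 differed by 0.07 (95% confidence interval -0.03 to 0.17) and SMAD9 by 0.08 (-0.03 to 0.20), intervals that lie wholly above that of SMAD1 (-0.51 to -0.25).

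SMAD4, the partner shared by both branches, read 8.88, 9.75, 9.93 and 9.79 against 8.79, 9.53, 9.54 and 9.57. This rise of 0.23 ± 0.06 (SE, n = 4 per group, adjusted p = 0.0348) was the smallest of the called differences. It did not pass when blocked by replicate number (adjusted p = 0.0754), after each array was centred on its median (adjusted p = 0.0568) or without any 1 of the 6 arrays of set 2 (adjusted p of up to 0.103). SMAD2 and SMAD3, which carry the TGF-beta signal, differed by -0.002 (95% confidence interval -0.15 to 0.14) and -0.15 (-0.30 to -0.002, adjusted p = 0.173). A second SMAD2 probe set gave -0.01. The inhibitory SMADs were not called either, with SMAD6 at 0.15 (adjusted p = 0.379) and SMAD7 at -0.02 (adjusted p = 0.909).

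Of the 7 secreted antagonists and latency proteins, FST rose and LTBP1 fell. FST encodes follistatin, which binds activins and some BMPs outside the cell. It read 8.66, 10.39, 10.36 and 10.46 with CDK9 siRNA against 8.31, 9.36, 9.22 and 9.39 with control siRNA. This was the largest rise among the members, 0.90 ± 0.12 (SE, n = 4 per group, adjusted p = 0.00161) or 1.86-fold. It was larger in set 2 (1.08) than in set 1 (0.34), and the difference between sets passed (adjusted p = 0.0346).

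LTBP1 encodes a protein that binds latent TGF-beta and anchors it in the matrix. Its values were 7.24, 8.17, 8.34 and 8.32 after silencing and 8.03, 8.85, 8.88 and 8.84 in the controls, so that 64.5% of the control signal was left (log2 -0.63 ± 0.06 SE, n = 4 per group, adjusted p = 0.000406). The related LTBP2 (0.16, adjusted p = 0.0916) and LTBP3 (-0.06, adjusted p = 0.56) were not called. The BMP antagonists NOG, CHRD and GREM1 differed by -0.12, -0.04 and -0.002, with adjusted p of 0.184 or more, and GREM1 was dim.

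BAMBI, a membrane pseudoreceptor that resembles a type I receptor but lacks the kinase domain, had the smallest adjusted p of the members. It read 7.53, 8.74, 8.71 and 8.73 in the CDK9 siRNA group and 8.41, 9.36, 9.36 and 9.42 in the controls. The fall left 61.2% of the control signal (log2 -0.71 ± 0.06 SE, n = 4 per group, adjusted p = 0.000176). The nuclear corepressors of SMADs were not called, with SKI at -0.21 (adjusted p = 0.108) and SKIL at 0.05 (adjusted p = 0.517).

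ID1, ID2, ID3 and ID4 encode helix-loop-helix proteins that lack a DNA-binding region and hold back basic helix-loop-helix factors. ID1, ID2 and ID3 are classical direct targets of BMP-activated SMADs. All 4 of them fell, where 7.47% of all genes tested did. With dim genes left out, 1653 of 12892 genes fell. ID2 fell most: it read 7.36, 8.78, 8.95 and 8.83 after silencing and 8.17, 9.47, 9.55 and 9.56 in the controls. The difference was -0.70 ± 0.06 (SE, n = 4 per group, adjusted p = 0.000197), with -0.81 in set 1 and -0.67 in set 2. Each CDK9 siRNA array lay at least 0.5 below every control of its set.

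ID3 read 10.09, 10.56, 10.49 and 10.59 against 10.54, 10.91, 10.91 and 10.96, a difference of -0.40 ± 0.05 (SE, n = 4 per group, adjusted p = 0.00107). ID4 values were 7.12, 9.23, 9.51 and 9.40 in the CDK9 siRNA group and 7.50, 9.77, 9.78 and 9.74 in the controls. ID4 thus differed by -0.38 ± 0.06 (SE, n = 4 per group, adjusted p = 0.00495). For ID1 the arrays read 10.51, 11.94, 11.90 and 11.79 against 10.93, 12.16, 12.17 and 12.12. The ID1 difference was -0.31 ± 0.06 (SE, n = 4 per group, adjusted p = 0.00655). The share of control signal left was 80.7% for ID1, 75.9% for ID3 and 76.6% for ID4, beside 61.4% for ID2. The interval of ID2 (-0.84 to -0.57) does not reach those of ID3 (-0.51 to -0.29), ID4 (-0.53 to -0.24) or ID1 (-0.43 to -0.18), which overlap each other. The 4 ID genes kept their calls when blocked by replicate number and without any 1 array.

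The promoters of the ID genes are shown because these 4 genes moved together, and that of BAMBI because it had the smallest adjusted p. Each sequence is the 250 bases before the RefSeq transcription start in GRCh38.p14, 5′ to 3′ on the strand of the gene: ID1 at chr20:31605039-31605288 (plus strand), ID2 at chr2:8681806-8682055 (plus), ID3 at chr1:23559502-23559751 (minus), ID4 at chr6:19837120-19837369 (plus) and BAMBI at chr10:28677271-28677520 (plus). Capitals mark any match, on either strand, to 7 motifs: the SMAD element CAGAC, the GC-rich SMAD element GGCGCC, the palindromic SMAD element GTCTAGAC, the cAMP response element TGACGTCA, the AP-1 element TGANTCA, the EGR element GCGTGGGCG and the TATA box TATAAA.
ID1: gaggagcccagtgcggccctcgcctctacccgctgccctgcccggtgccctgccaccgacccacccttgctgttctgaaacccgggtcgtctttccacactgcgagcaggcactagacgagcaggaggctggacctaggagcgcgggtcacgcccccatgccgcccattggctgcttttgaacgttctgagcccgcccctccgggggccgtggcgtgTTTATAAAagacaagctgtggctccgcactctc
ID2: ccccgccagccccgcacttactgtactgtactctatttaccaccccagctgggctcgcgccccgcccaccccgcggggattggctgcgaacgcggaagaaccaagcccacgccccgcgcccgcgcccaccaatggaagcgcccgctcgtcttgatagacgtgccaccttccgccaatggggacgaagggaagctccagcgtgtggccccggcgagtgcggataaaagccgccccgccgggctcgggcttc
ID3: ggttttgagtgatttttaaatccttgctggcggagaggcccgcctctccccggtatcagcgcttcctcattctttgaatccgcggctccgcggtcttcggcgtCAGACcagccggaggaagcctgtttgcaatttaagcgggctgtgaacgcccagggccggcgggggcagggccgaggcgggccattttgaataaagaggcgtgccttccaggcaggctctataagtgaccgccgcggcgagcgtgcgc
ID4: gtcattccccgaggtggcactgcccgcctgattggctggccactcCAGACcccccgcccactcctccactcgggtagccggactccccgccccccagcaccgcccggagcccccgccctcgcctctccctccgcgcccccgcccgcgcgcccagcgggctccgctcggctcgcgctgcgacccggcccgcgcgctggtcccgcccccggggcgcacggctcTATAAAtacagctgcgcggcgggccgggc
BAMBI: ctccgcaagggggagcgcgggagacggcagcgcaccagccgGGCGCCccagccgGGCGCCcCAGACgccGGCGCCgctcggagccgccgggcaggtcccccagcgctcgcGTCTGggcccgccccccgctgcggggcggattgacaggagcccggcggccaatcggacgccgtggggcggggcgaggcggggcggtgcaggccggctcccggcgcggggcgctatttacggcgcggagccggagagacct

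CAGAC or its complement GTCTG stood once in the ID3 window, once in the ID4 window and in 2 places in that of BAMBI. It is common: 38% of 35116 RefSeq promoter windows of this length hold it. GGCGCC, present in 16.4% of windows, occurred 3 times in the BAMBI window, from -209 to -204, -196 to -191 and -181 to -176 relative to the start, and in none of the ID windows. TATAAA or its complement, found in 10.7% of windows, lay near the start of ID1 and ID4, where the 2 matches of ID1 overlap. The ID2 window held no match to any of the 7. GTCTAGAC, TGACGTCA, TGANTCA and GCGTGGGCG, held by 0.182%, 1.65%, 6.57% and 0.72% of windows, were in none of the 5. The GC content of the windows was 62% to 81.2%, beside a median of 58% over all windows. These are matches of letters in windows of 250 bases. Sequence further upstream was not searched, and binding was not measured.

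The 2 sets gave different differences for 6 of the 44 members (adjusted p under 0.05 for a group-by-set term in limma), where 2.14% of all genes tested did. They were BMP4, BMP5, GDF11, TGFB2, TGFBR2 and FST. BMP4 and FST had the same direction in both sets and differed in size. BMP5, GDF11, TGFBR2 and TGFB2 changed sign between sets. Array set 1 holds 1 array per group, so its differences carry no replicate error of their own and the test takes its error from set 2. In set 2 alone, 7 members rose and 13 fell, where 9.52% and 8.57% of all genes tested did (18.1% in all). All 14 members called over both sets, in a fit that includes the set 2 arrays, were among these 20. The other 6 were BMP5, INHBA, SMAD6, GDF11, TGFBR2 and SKI. SMAD6 differed by -0.26 and 0.28 in sets 1 and 2, and SKI by 0.02 and -0.29.

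**Figure D3:**
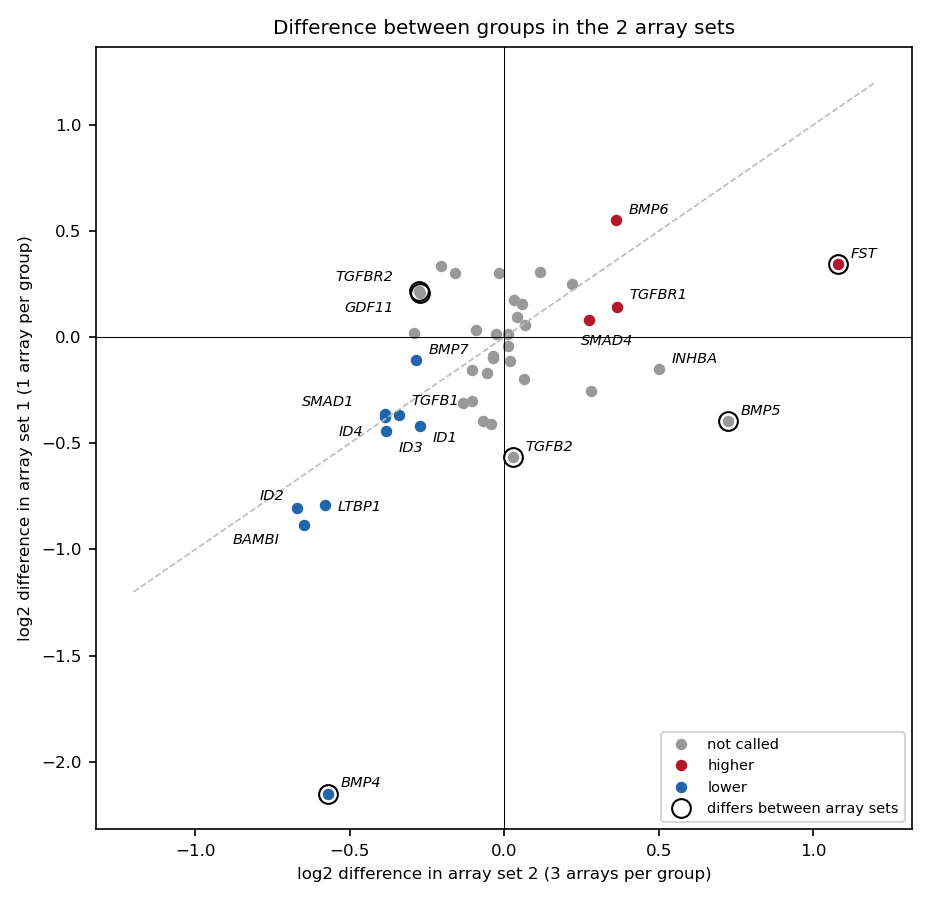
Log2 difference between groups in set 2 (x axis, 3 arrays per group) and set 1 (y axis, 1 array per group) for the 44 members, coloured by call in the fit of both sets; the dashed line marks equal differences and rings mark members whose differences passed the test between sets. BMP4 lies far below the line at -0.57 and -2.15, while ID1 to ID4, BAMBI, LTBP1, SMAD1 and TGFB1 lie close to it.

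The list of other pathway genes held 86 names, of which 81 were measured, 21 of them dim. Of these, 14 fell and 5 rose, where 7.47% and 6.73% of all genes tested did, and the list's median difference was -0.03. Among 8 BMP target genes outside the member list, MSX1, MSX2 and RUNX2 fell and the other 5 were not called. RUNX2, the transcription factor that commits cells to the osteoblast lineage, read 5.50 against 6.24 in set 1 and had means of 8.80 against 9.36 in set 2, a difference of -0.60 ± 0.06 (SE, n = 4 per group, adjusted p = 0.000344). MSX2, a homeobox factor of skull and limb development, fell by 0.56 on the log2 scale (adjusted p = 0.00354). SMURF2, a ubiquitin ligase that degrades TGF-beta receptors and SMADs, fell by 0.42 (adjusted p = 0.00187).

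TGF-beta target genes went both ways, with 4 of 10 measured lower and 3 higher. FN1, which encodes fibronectin, differed by -0.81, the collagen gene COL1A1 by -0.51 and the cell cycle inhibitor CDKN2B by -0.43 (adjusted p = 0.000517, 0.0011 and 0.0121). TAGLN, an actin-binding protein of contractile cells, rose by 0.88 ± 0.08 (SE, n = 4 per group, adjusted p = 0.000344), the matricellular gene CCN2 by 0.54 (adjusted p = 0.00578) and TGFBI by 0.23 (adjusted p = 0.0206). CRIM1, a transmembrane protein that binds BMPs, rose by 0.46 (adjusted p = 0.00141). ITGB8, an integrin subunit that activates latent TGF-beta, rose by 0.55 (adjusted p = 0.0233), with 0.76 in set 2 and -0.08 in set 1, and lost its call when blocked by replicate number (adjusted p = 0.0615) and without any 1 array of set 2 (adjusted p of up to 0.0718). TGFBI lost its call without CDK9 siRNA replicate 4 or control replicate 2 or 3 (adjusted p of up to 0.0745). The other 8 falls lay between -0.41 and -0.21, and MSX1, SNAI2 and TGIF1 among them did not pass when blocked by replicate number (adjusted p = 0.0702, 0.0899 and 0.0972). SNAI2 and TGIF1 also lost their calls after each array was centred on its median (adjusted p = 0.0688 and 0.0728) and in set 2 alone (0.0996 and 0.0638). TGIF1 has 4 further probe sets, which gave -0.21, -0.20, -0.20 and -0.03. THBS1, TGIF2 and FURIN, also among these 8 falls, lost their calls without some single arrays (adjusted p of up to 0.062, 0.054 and 0.067).

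**Figure D4:**
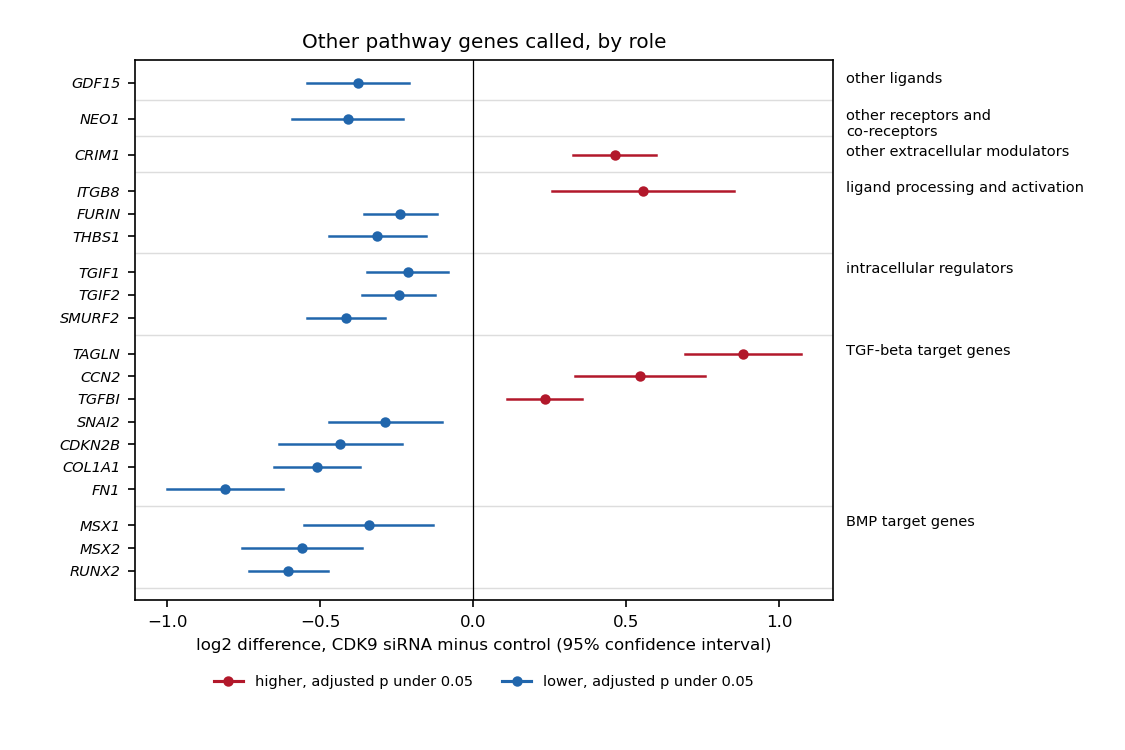
Log2 difference between CDK9 siRNA and control siRNA (x axis) with 95% confidence intervals for the 19 called genes among 81 measured pathway genes outside the member list, grouped by role (n = 4 arrays per group). The called BMP target genes all lie below 0, while called TGF-beta target genes lie on both sides, from FN1 at -0.81 to TAGLN at 0.88.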

How the data were processed

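The deposited table holds log2 expression of 33297 probe sets in 8 arrays; RMA, Affymetrix Expression Console 1.1, limma and hg19 are named in the submitters' processing notes, without role or order. The sources used here do not say whether the arrays were normalized jointly. Values were used unchanged; the number of arrays limits their precision. Symbols came from the platform annotation, and 19460 probe sets had 1 symbol, of which 19429 matched RefSeq GRCh38.p14 by Entrez identifier. The table gives no detection calls, so dim genes may lie at background.

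The group difference was fitted in R 4.3.3 with limma 3.58.1 (lmFit, eBayes, two-sided, Benjamini-Hochberg over 18417 genes), blocked by set (replicate 1 pair; replicates 2 to 4); tables and figures used Python 3.11.15. The fit was tested on simulated data. Deviations of same-numbered arrays from their group means correlated across genes at 0.822, 0.537, 0.494 and 0.607. Each group mean spans both sets, so the difference between sets enters every deviation, and arrays of unlike number were not correlated. These values therefore cannot tell whether the numbers are pairs. Fits when blocked by replicate number are given where they change a call. Values by array are given for members with adjusted p under 0.05; others are named at an absolute difference of 0.3 or more, as core pathway genes, or after their values were seen. Of the other pathway genes, up to 6 rises and 6 falls are named, and further falls where a call was lost under an alternative. The members, lists and block were chosen with earlier results of these data known, so the lists give no independent support. Promoter sequences are those of RefSeq GRCh38.p14, with entries for 39 of the 44 measured members.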

Additional observations from a re-analysis of the deposited data

Results flagged for a closer look

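For CDK9 and the 14 called members, the 4 arrays of each group were searched for 1 that stood apart, after each array's median was subtracted. Among these 30 groups, 10 had such an array, and it was replicate 1 each time. The rate of about 1 in 20 groups that chance gives does not apply here: replicate 1 was already known to lie on another scale, and the genes were chosen by a fit with a block for it. Subtracting the medians takes out the offset of the whole array, so the values below are differences of single genes that remained. Their cause was not tested. The gap to the nearest other array, as a share of the group's whole range, was 0.944 (CDK9 siRNA) and 0.916 (control) for BMP4, 0.904 and 0.957 for ID3, and 0.86 for FST in the CDK9 siRNA group. In the control group it was 0.964 for TGFBR1, 0.953 for SMAD4, 0.859 for LTBP1, 0.835 for BAMBI and 0.949 for ID4. Replicate 1 was the lowest array for BMP4, FST and ID4 and the highest for TGFBR1, SMAD4, LTBP1, BAMBI and ID3.

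For 6 members the group difference itself differed between sets. Subtracting the set 2 difference from the set 1 difference gave -1.58 for BMP4 (adjusted p = 0.00829), -1.12 for BMP5 (0.0163), -0.74 for FST (0.0346), -0.59 for TGFB2 (0.0289), 0.49 for TGFBR2 (0.0393) and 0.48 for GDF11 (0.0484), in limma with a group-by-set term. The labels do not say how the sets differ, and the cause was not tested.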

How the results depend on the processing

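Without an array block, limma called 0 members and 0 other pathway genes in either direction, and CDK9 (-1.82) did not pass (adjusted p = 1): the difference between sets then enters the residual. At an unadjusted p under 0.05 that fit had 0 members and 51 of all genes. With set 2 alone, 7 members were higher. Leaving out 1 array at a time gave 3 to 7 members higher and 9 to 13 lower, and 3 to 6 other pathway genes higher and 8 to 18 lower; leaving out either replicate 1 array equals set 2 alone. Among the other pathway genes, 3 were higher without control replicate 2 or 3, and 9, 8 and 9 lower without control replicates 2, 3 and 4. Blocking by replicate number called 813 genes higher and 875 lower, against 1239 and 1376, and it changed no call of a named gene beyond those given. Over all genes, leaving out 1 array gave 714 to 1753 higher and 806 to 1578 lower. Quantile normalizing again, leaving out dim genes and averaging probe sets changed no call of a member. Averaging probe sets ended the calls of TGIF1 and EPCAM (adjusted p = 0.0893 and 0.216). An intensity trend added INHBA and BMPR2 (adjusted p = 0.0304 and 0.0338), for 5 members higher and 11 lower. The fit with that trend called 16 other pathway genes lower. Centring on array medians left 3 members higher, without SMAD4, and 12 other pathway genes lower, without SNAI2 and TGIF1 (adjusted p = 0.0688 and 0.0728), and ended the call of VIM (0.0744). With 1 array left out at a time, TGIF1 lost its call in 8 of 8 cases (adjusted p of up to 0.113), SNAI2 in 7 (0.129), VIM in 6 (0.102), MSX1 and EPCAM in 5 each (0.112 and 0.105) and TEK in 4 (0.0816). THBS1 and TGIF2 lost their calls in 3 cases each (0.062 and 0.054) and FURIN in 2 (0.067). No named gene's call changed direction under these alternatives. The number of arrays, 1 per group in set 1, limits what the set difference can show.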
